A study of Mus musculus with 45 samples.

Results

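H3K9ac, the acetylation of lysine 9 on histone H3 that marks active promoters and enhancers, was examined at 8 stretches of the mouse genome that hold the immediate early genes Fos, Arc, Egr1, Npas4, Nr4a1, Fosb and Junb and the neurotrophin gene Bdnf. The members were all H3K9ac domains of the authors' common set that overlapped, by at least 1 bp, 8 windows of 20 to 70 kb given in the mm9 build. The rule used positions alone and no measured value, but the windows were chosen with earlier results of these data known. It found 53 domains among 44165. The Nr4a1 window held 12 of them, the Arc and Fosb windows 8 each, the Npas4 window 7, the Junb window 6, the Bdnf window 5, the Egr1 window 4 and the Fos window 3.

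The series measured H3K9ac by chromatin immunoprecipitation and sequencing in whole mouse hippocampus, in 23 libraries. Of these, 11 formed a tau series, with mice transgenic for MAPT carrying P301S, a frontotemporal dementia mutation of human tau. It set Tau mice at 11 months (n = 3) against wild type (WT) mice at 11 months (n = 3), and Tau mice at 6 months (n = 2) against WT mice at 6 months (n = 3). The other 12 formed a CK-p25 series, with double-transgenic CK-p25 mice 6 weeks after induction of p25 at 4.5 months of age against CK control littermates (n = 3 each). It also held CK-p25 mice 2 weeks after induction at 3.5 months against CK littermates (n = 3 each). The 11-month mice of both genotypes were male and the 6-month mice female, so that age and sex cannot be told apart. All mice of the CK-p25 series were female. CK-p25 mice express p25, the truncated activator of the kinase Cdk5, under a CaMKII promoter in forebrain excitatory neurons. The labels do not say which transgene the CK controls carry or which promoter drives mutant tau. The labels do not state whether each library is 1 animal. Each p-value therefore rests on the spread between libraries, which need not be that between animals. That spread was estimated over all groups of a series. In whole tissue, fewer cells of a type and less acetylation per cell cannot be told apart.

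Immediate early genes are switched on within minutes of synaptic activity without new protein synthesis. Fos, Fosb and Junb encode subunits of the AP-1 transcription factor, Egr1 a zinc finger factor, Nr4a1 an orphan nuclear receptor and Npas4 a neuron-specific factor induced by calcium entry. Arc encodes a protein of the synapse that promotes removal of AMPA receptors from the membrane, and Bdnf encodes brain-derived neurotrophic factor, a secreted ligand of the receptor TrkB and a known target of Npas4. In neurons, CREB bound at cyclic AMP response elements, and SRF bound at CArG boxes, are known to carry the calcium signal to many of these promoters.

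RefSeq promoter windows, 250 bases before to 50 after each start, were given for 6 of the 8 genes in the GRCm38.p6 build, with 7 starts for Bdnf and 1 for each of the others, 12 in all. Coordinates of that build were not carried over to the mm9 domains, so which domain covers which start was not determined, and a domain is named here by its window. The following 5 promoters are shown because their windows hold the domains that fell most (Bdnf and Npas4), the domain that rose (Fos) and 2 whose leading domains did not pass the test (Nr4a1 and Junb). They are 5′ to 3′ on the gene's strand, and capitals mark every match, on either strand, to TGACG, the core of the cyclic AMP response element. Bdnf start 3 is shown as the only 1 of the 7 Bdnf starts with a match, and no domain was matched to it.
Bdnf start 3, chr2:109692186-109692485, plus strand: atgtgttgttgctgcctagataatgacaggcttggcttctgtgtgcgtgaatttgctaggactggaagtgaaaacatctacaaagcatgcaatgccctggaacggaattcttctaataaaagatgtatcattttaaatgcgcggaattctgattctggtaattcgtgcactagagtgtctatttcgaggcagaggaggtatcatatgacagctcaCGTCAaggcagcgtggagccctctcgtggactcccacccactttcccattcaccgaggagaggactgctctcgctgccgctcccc
Npas4, chr19:4989922-4990221, minus strand: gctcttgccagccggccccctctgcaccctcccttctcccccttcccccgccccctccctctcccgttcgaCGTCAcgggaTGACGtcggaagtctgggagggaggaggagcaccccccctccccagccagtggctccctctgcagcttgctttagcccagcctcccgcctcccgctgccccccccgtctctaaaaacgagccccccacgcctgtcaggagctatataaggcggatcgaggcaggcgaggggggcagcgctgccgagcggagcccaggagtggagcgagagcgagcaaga
Fos, chr12:85473640-85473939, plus strand: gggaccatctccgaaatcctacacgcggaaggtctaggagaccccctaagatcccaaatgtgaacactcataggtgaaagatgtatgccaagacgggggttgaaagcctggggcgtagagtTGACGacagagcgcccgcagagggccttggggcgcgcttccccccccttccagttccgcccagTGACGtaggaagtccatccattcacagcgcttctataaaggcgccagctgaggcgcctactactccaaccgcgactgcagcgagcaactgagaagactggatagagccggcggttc
Nr4a1, chr15:101266596-101266895, plus strand: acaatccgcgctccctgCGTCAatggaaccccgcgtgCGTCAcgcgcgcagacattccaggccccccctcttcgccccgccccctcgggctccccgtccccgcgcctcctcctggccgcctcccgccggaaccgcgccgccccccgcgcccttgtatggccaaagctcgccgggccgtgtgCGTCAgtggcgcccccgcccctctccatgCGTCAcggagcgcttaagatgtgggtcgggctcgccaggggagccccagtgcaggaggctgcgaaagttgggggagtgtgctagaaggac
Junb, chr8:84978699-84978998, minus strand: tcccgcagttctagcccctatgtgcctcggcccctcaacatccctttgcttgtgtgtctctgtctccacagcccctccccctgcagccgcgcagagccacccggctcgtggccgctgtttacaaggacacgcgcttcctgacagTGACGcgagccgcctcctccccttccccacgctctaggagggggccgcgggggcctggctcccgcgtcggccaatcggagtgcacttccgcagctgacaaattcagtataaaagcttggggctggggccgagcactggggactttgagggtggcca

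The core TGACG was present in at least 1 promoter of all 6 genes, and in 6 of the 12 windows, against 20.8% of all 32851 RefSeq promoter windows of this length. Nr4a1 held 4 matches, Npas4 and Fos 2 each, Fosb, Junb and Bdnf start 3 held 1 each, and the other 6 Bdnf windows held none. In Npas4 the matches began 179 and 169 bases before the start, in Fos 129 and 66 bases before it, and in Bdnf start 3 it began 35 bases before it. The full palindrome TGACGTCA was in none of the 12 windows and in 1.79% of all, and the CArG box was in none of the 12 and in 1.63% of all. The EGR site GCGNGGGCG, searched on both strands, was in 2 of the 12, those of Nr4a1 and Fosb, against 5.55% of all. Of a list of 25 other activity-regulated genes, such as Egr2, Nr4a2 and Dusp1, 20 had 28 promoter windows, and 18 of these (64.3%) held the core. The full palindrome was in 17.9% of these 28 windows, the CArG box in 14.3%, all of 1 gene, and the EGR site in 21.4%. A match is a description of letters, and no match says only that they are not in these windows.

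Reads were counted by the authors in each domain, and are given as CPM, the count scaled to a common library total, after TMM normalisation within each series. The libraries held 4097974 to 6181925 reads in domains in the tau series and 996369 to 4133003 in the CK-p25 series, where CK 6-week replicate 3 and CK-p25 6-week replicate 3 were shallowest. The cross correlation that the labels give, a measure of enrichment, was 0.228 ± 0.0263 in Tau 11-month libraries and 0.313 ± 0.0250 in WT 11-month libraries (SD, n = 3 each), with no overlap. It was 0.243 ± 0.0164 in Tau 6-month libraries (n = 2) and 0.245 ± 0.00303 in WT 6-month libraries (n = 3). For the CK-p25 series the value was 0.132 ± 0.0527 in CK-p25 and 0.0928 ± 0.0387 in CK libraries at 6 weeks, and 0.167 ± 0.0234 in CK-p25 and 0.139 ± 0.0368 in CK libraries at 2 weeks (SD, n = 3 each). Of the reads in domains, the 53 members took 0.123% to 0.134% in Tau 11-month libraries and 0.138% to 0.139% in WT 11-month libraries. Cell type markers were not analysed here for want of mm9 gene positions.

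Each window held 1 leading domain, the one with the highest mean CPM over the 23 libraries. The leading domains were 2418 to 5732 bp wide, against a median of 776 bp over all domains and 829 bp over the 53 members, whose widths ran from 102 to 5732 bp. Per kb of width, the leading domain of the Junb window (chromosome 8, 87499592 to 87505323, mm9) had the highest mean in each of the 8 groups, that of the Arc window (chromosome 15, 74499382 to 74504192) the next, and that of the Bdnf window the lowest. Junb averaged 34.1 ± 1.47 CPM per kb in Tau 11-month and 36.2 ± 0.94 in WT 11-month libraries, Arc 22.8 ± 1.86 in Tau and 27.8 ± 1.38 in WT libraries, and Bdnf 10.2 ± 0.744 in Tau and 16.2 ± 1.47 in WT libraries (SD, n = 3 each). The order of the other 5 changed between groups. In WT 11-month libraries it was Fosb (20.6 CPM per kb), Egr1 (20.3), Npas4 (18.4), Nr4a1 (18.2) and Fos (17.97). Fosb and Egr1 differed there by less than the larger of their SDs, as did Npas4 and Nr4a1, and Nr4a1 and Fos. In Tau 11-month libraries it was Fos (19.85), Fosb (17.2), Nr4a1 (16.9), Egr1 (16.8) and Npas4 (11.4). Of these neighbours, only Egr1 and Npas4 and Fos and Fosb differed by more than the larger of their SDs. Over the 12 libraries of the CK-p25 series these 5 averaged between 18.7 and 19.9 CPM per kb. Averaged over each series, all 8 were above the median of all domains, 10.5 CPM per kb in the tau series and 11.0 in the CK-p25 series.

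**Figure D1:**
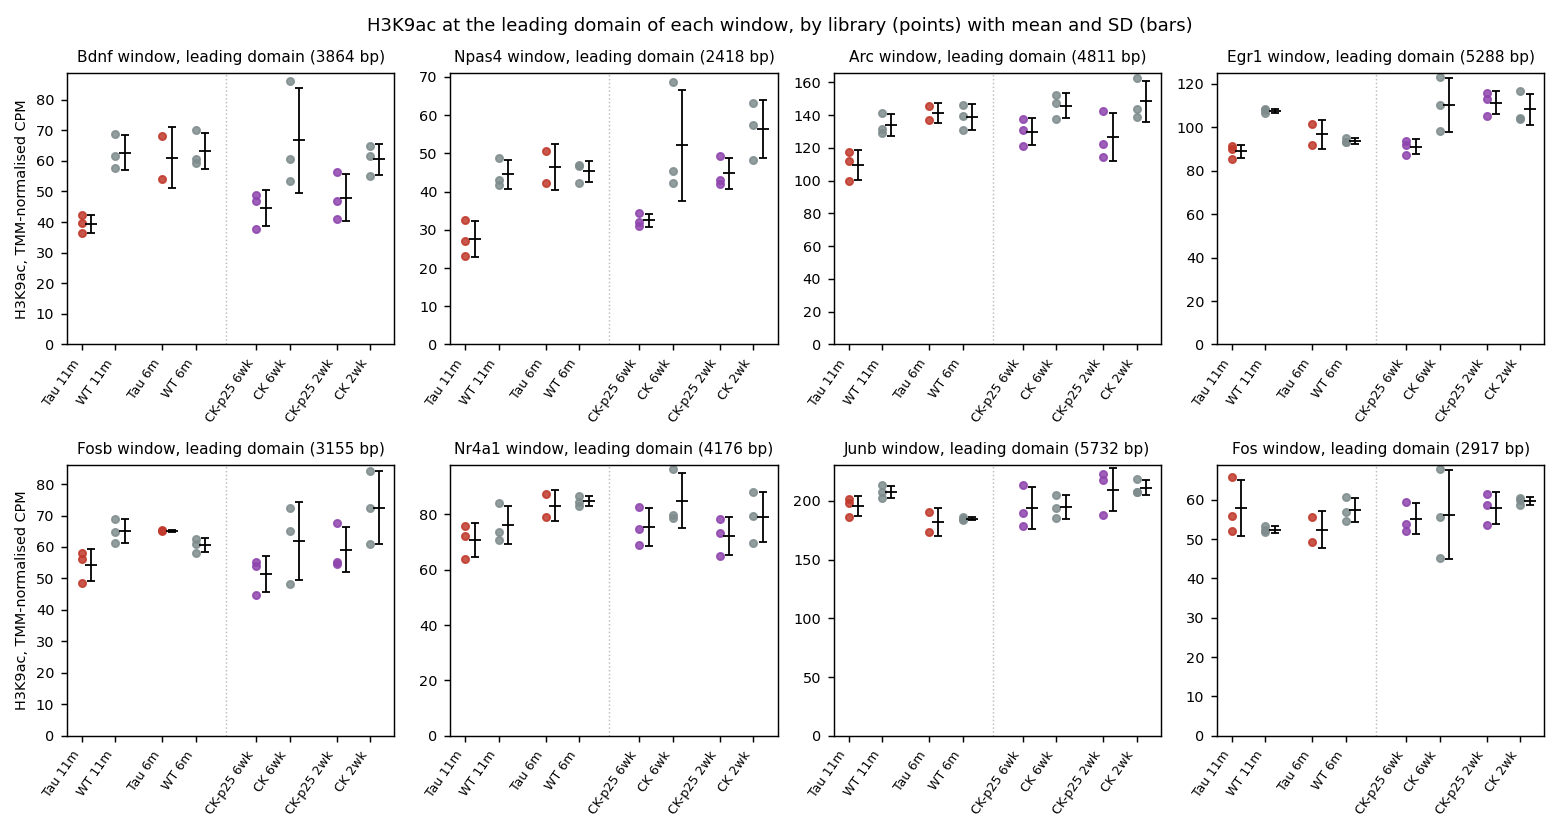
H3K9ac of the leading domain in each of the 8 windows, in TMM-normalised CPM (vertical axes, from 0), for each library (points) of the 8 groups, with the group mean and SD (black bars, n = 3, or 2 for Tau 6m). In the Bdnf and Npas4 panels the Tau 11-month libraries, 36.4 to 42.2 and 23.2 to 32.5 CPM, lie below every other library of the tau series, and in the Junb panel the groups lie close together.

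At 11 months, H3K9ac was lower in Tau than in WT libraries at domains of the Bdnf, Npas4, Arc, Egr1 and Fosb windows and 1 domain of the Nr4a1 window. It was higher at 1 domain of the Fos window, and no domain of the Junb window passed the test. Of the 53 members, 11 were lower and 1 higher at an adjusted p under 0.05 (edgeR's quasi-likelihood test with Benjamini-Hochberg adjustment over all 44105 domains tested, used for each p below). Over all domains tested, 7.56% were lower and 4.40% higher. Wide domains passed more often: of the 5654 tested that were at least as wide as the narrowest leading domain, 1412 were lower and 411 (7.27%) higher, and of the 10 members that wide, 5 were lower and 1 higher. The median log2 fold change was -0.14 over the 53 members and 0.01 over all domains. The cross correlation did not overlap between these groups, so that enrichment of the libraries and genotype cannot be told apart at 11 months. With it as a covariate, 3 of the 12 calls were kept, as given below.

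Bdnf fell at the leading domain of its window and at a domain of 2346 bp, narrower than the wide domains counted above. Its leading domain (chromosome 2, 109532205 to 109536068) had 39.6, 42.2 and 36.4 CPM in Tau libraries, against 57.7, 68.8 and 61.5 CPM in WT libraries at 11 months. All 3 Tau libraries were below all 3 WT libraries, with a log2 fold change of -0.67 ± 0.089 (SE; fold 0.628; adjusted p = 2.26e-08). A second domain, 109515956 to 109518301, had 36.1, 36.6 and 25.4 CPM in Tau libraries and 51.1, 58.7 and 56.7 CPM in WT libraries. The groups did not overlap there either, and the log2 fold change was -0.77 ± 0.096 (fold 0.586; adjusted p = 5.03e-09). Between these domains lay 13903 bp. The RefSeq starts of Bdnf have gaps of up to 15404 bp in GRCm38.p6, but no domain was matched to a start. Summed over its 5 domains, the Bdnf window averaged 84.7 ± 8.44 CPM in Tau and 135.5 ± 10.2 CPM in WT libraries (SD, n = 3 each).

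The Npas4 window fell at its leading domain and at the narrow domain on each side. The leading domain (chromosome 19, 4987667 to 4990084), 2418 bp wide, had 27.2, 32.5 and 23.2 CPM in Tau libraries, against 43.2, 48.8 and 41.6 CPM in WT libraries. The highest Tau library was below the lowest WT library, and the log2 fold change was -0.70 ± 0.10 (fold 0.615; adjusted p = 2.62e-07). The domain at 4985793 to 4986459 had 3.65, 2.42 and 3.86 CPM in Tau and 5.77, 5.83 and 6.34 CPM in WT libraries (log2 fold change -0.82 ± 0.26; adjusted p = 0.0274). The domain at 4990292 to 4990832 had 2.37, 3.15 and 1.66 CPM in Tau and 4.61, 4.86 and 3.90 CPM in WT libraries (log2 fold change -0.92 ± 0.32; adjusted p = 0.0453). Both narrow domains rest on few reads. The call of the first was lost without Tau 11-month replicate 2 (-0.67; adjusted p = 0.105) or any 1 WT 11-month replicate (-0.85, -0.83 and -0.77; adjusted p = 0.0530 to 0.0808). The call of the second was lost without Tau 11-month replicate 1 or 3, WT 11-month replicate 1 or 2, either Tau 6-month replicate or WT 6-month replicate 2 (-0.93 to -0.70; adjusted p = 0.0524 to 0.246).

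Arc and Egr1 fell by smaller amounts at high levels. The Arc leading domain, which held 80.9% of the window's reads in domains in the tau series, had 112, 117 and 99.7 CPM in Tau libraries, against 141, 129 and 131 CPM in WT libraries (log2 fold change -0.29 ± 0.062; adjusted p = 0.000282). The Egr1 leading domain (chromosome 18, 35018298 to 35023585) had 91.2, 90.2 and 85.6 CPM in Tau libraries, against 108, 106 and 108 CPM in WT libraries (-0.27 ± 0.063; adjusted p = 0.000950). Neither pair of groups overlapped. A domain at the edge of the Arc window, 74509686 to 74510572, had 7.67, 5.33 and 5.89 CPM in Tau and 10.1, 11.3 and 8.13 CPM in WT libraries (-0.61 ± 0.21; adjusted p = 0.0369). That call was lost without Tau 11-month replicate 2 or 3 or WT 11-month replicate 1 or 2 (-0.59 to -0.51; adjusted p = 0.101 to 0.181). In the RefSeq gene order Jrk and Mroh4 neighbour Arc, Reep2 and Etf1 neighbour Egr1, Rtn2 and Ercc1 neighbour Fosb, and Prdx2 and Hook2 neighbour Junb, so an edge domain need not belong to the gene its window is named for.

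Among the AP-1 genes, domains of the Fosb window fell, a domain of the Fos window rose and no domain of the Junb window passed. At the edge of the Fosb window, which ends at 19905000, the domain at chromosome 7, 19904691 to 19906201, lies mostly outside. It had 24.6, 28.4 and 25.02 CPM in Tau libraries, against 36.4, 34.4 and 37.9 CPM in WT libraries, with no overlap (log2 fold change -0.49 ± 0.11; adjusted p = 0.000509). The Fosb leading domain, 19893193 to 19896347, had 58.2, 48.5 and 56.3 CPM in Tau and 68.9, 61.3 and 64.7 CPM in WT libraries (-0.25 ± 0.077; adjusted p = 0.0200). Its call was lost without Tau 11-month replicate 2 (-0.18; adjusted p = 0.123) or WT 11-month replicate 1 (-0.21; adjusted p = 0.133). The Junb leading domain had 202, 186 and 198 CPM in Tau and 213, 207 and 203 CPM in WT libraries. The difference of -0.09 ± 0.052 did not pass (adjusted p = 0.329). In the Fos window, the domain at chromosome 12, 86813920 to 86817537, 3618 bp wide, had 75.7, 55.5 and 66.4 CPM in Tau libraries, against 39.4, 37.3 and 40.0 CPM in WT libraries. Every Tau library was above every WT library, and the log2 fold change was 0.77 ± 0.086 (fold 1.71; adjusted p = 9.39e-11). The Fos leading domain, 86826092 to 86829008 and 8554 bp further along, had 65.9, 52.1 and 55.8 CPM in Tau and 52.2, 51.7 and 53.3 CPM in WT libraries (0.15 ± 0.081; adjusted p = 0.252), so that the groups overlapped.

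**Figure D2:**
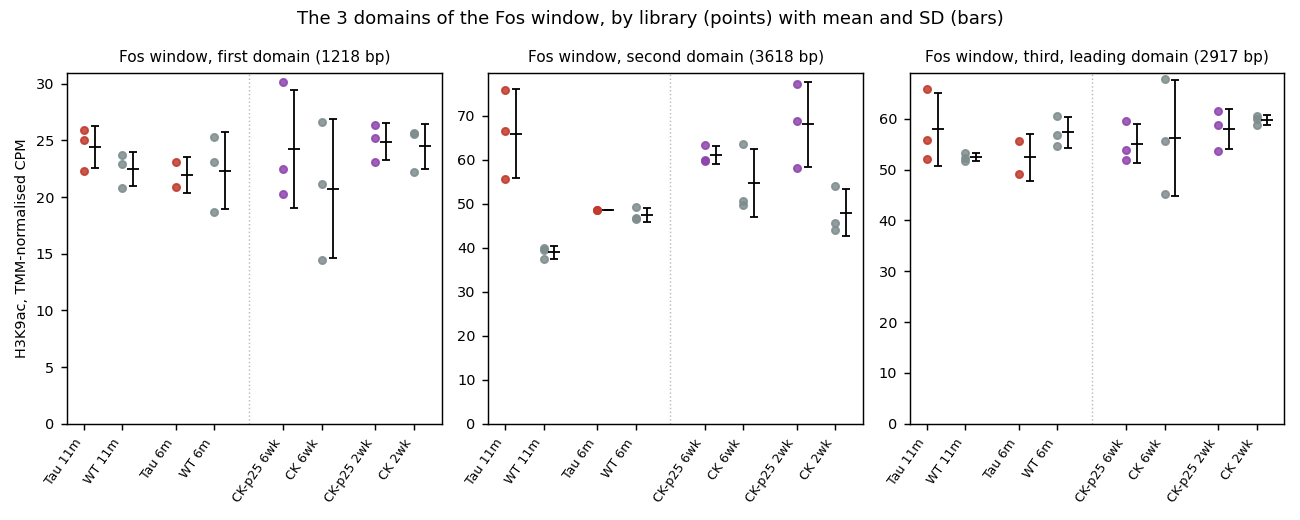
H3K9ac of the 3 domains of the Fos window in order of position, in TMM-normalised CPM (vertical axes, from 0), for each library (points) of the 8 groups with mean and SD (black bars). In the second domain the Tau 11-month libraries, 55.5 to 75.7 CPM, lie above the WT 11-month libraries, 37.3 to 40.0 CPM, and in the leading domain the groups overlap.

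In the Nr4a1 window, the domain at chromosome 15, 101083996 to 101085668, had 25.4, 22.1 and 20.8 CPM in Tau libraries, against 27.2, 33.5 and 28.8 CPM in WT libraries (log2 fold change -0.38 ± 0.12; adjusted p = 0.0284). That call was lost without Tau 11-month replicate 2 (-0.36; adjusted p = 0.0562) or replicate 3 (-0.31; adjusted p = 0.155) or WT 11-month replicate 2 (-0.29; adjusted p = 0.206). The Nr4a1 leading domain, 101096219 to 101100394, had 75.7, 63.7 and 72.3 CPM in Tau and 84.0, 73.5 and 70.9 CPM in WT libraries, which overlapped (-0.10 ± 0.073; adjusted p = 0.421).

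The cross correlation was lower in the Tau 11-month libraries than in their WT controls, and with it as a covariate 3 members passed, the 2 Bdnf domains and the Fos domain. The other 9 calls were lost. The Npas4 leading domain was at -0.71 (adjusted p = 0.0841), the Fosb domain at 19904691 to 19906201 at -0.51 (adjusted p = 0.355) and the narrow Npas4 domain at 4990292 to 4990832 at -0.85 (adjusted p = 0.691). The Arc and Egr1 leading domains were at -0.24 and -0.19 (adjusted p = 0.513 and 0.650), and the Fosb leading domain was at 0.00 (adjusted p = 0.996). Scaled by library totals 8 members passed, as the calls of the Fosb leading domain (-0.20; adjusted p = 0.0694), the Arc edge domain (-0.57; adjusted p = 0.0584), the narrow Npas4 domain at 4990292 to 4990832 (-0.87; adjusted p = 0.0592) and the Nr4a1 domain (-0.33; adjusted p = 0.0608) were lost. With the 11-month groups alone in the fit 9 passed, and the first 3 of these were lost (adjusted p = 0.0551 to 0.0714). By DESeq2's Wald test 7 passed, and these 4 and the other narrow Npas4 domain were lost (adjusted p = 0.114 to 0.161).

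At 6 months, no member passed the test in Tau hippocampus, nor did any of the 44105 domains (percent called 0). By DESeq2's Wald test no member passed either, and 2 members had an unadjusted p under 0.05 by edgeR's quasi-likelihood test. The Bdnf leading domain had 53.9 and 68.1 CPM in Tau libraries, against 69.9, 60.5 and 59.2 CPM in WT libraries (log2 fold change -0.05 ± 0.095). The Npas4 leading domain had 50.7 and 42.1 CPM in Tau and 46.6, 47.0 and 42.2 CPM in WT libraries (0.04 ± 0.11). The Fos domain that rose at 11 months had 48.6 and 48.5 CPM in Tau and 46.6, 49.3 and 46.5 CPM in WT libraries (0.03 ± 0.10). In all 3 domains the groups overlapped. The 8 leading domains had log2 fold changes of -0.13 to 0.11.

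The difference itself, the Tau effect at 11 months minus that at 6 months, was also tested. The test passed at 5 members below zero and 1 above, where 3.21% and 1.02% of all domains did. Of the 10 wide members, it passed at 4 below zero and 1 above, where 14.5% and 2.25% of all wide domains did. The Npas4 leading domain differed by -0.74 ± 0.15 (adjusted p = 0.000457). The Bdnf domains differed by -0.75 ± 0.14 and, for the leading one, -0.62 ± 0.13 (adjusted p = 0.000157 and 0.00103), and the Fos domain by 0.74 ± 0.13 (adjusted p = 6.97e-05). The Arc and Egr1 leading domains each differed by -0.32 (adjusted p = 0.0279 and 0.0359), calls that were lost in 10 and 12 of 18 alternatives, among them library totals (-0.28 each; adjusted p = 0.0631 and 0.0825) and most single libraries left out. Averaged over both ages, 5 members were lower in Tau mice and 1 higher, against 3.50% and 1.07% of all domains. Of the 10 wide members, 2 were lower and 1 higher, against 15.6% and 2.51% of wide domains. The calls among all members included the Fos domain (0.40 ± 0.067; adjusted p = 1.68e-05), both Bdnf domains (-0.40 ± 0.070 and, leading, -0.36 ± 0.065; adjusted p = 5.98e-05 and 7.66e-05) and the Npas4 leading domain (-0.33 ± 0.075; adjusted p = 0.00218). The remaining calls were the Fosb domain on chromosome 7 at 19904691 to 19906201 and the Nr4a1 domain on chromosome 15 at 101083996 to 101085668 (-0.29 and -0.31; adjusted p = 0.0196 and 0.0351). Without Tau 6-month replicate 2 the count fell to 3, as the Npas4 (-0.27; adjusted p = 0.0830), Fosb (-0.24; adjusted p = 0.226) and Nr4a1 (-0.21; adjusted p = 0.444) calls were lost. The Fosb call was also lost without Tau 11-month replicate 1 or WT 6-month replicate 2 (-0.27 and -0.25; adjusted p = 0.0526 and 0.109). The Nr4a1 call was also lost without Tau 11-month replicate 3, WT 11-month replicate 2 or WT 6-month replicate 2 or 3 (-0.30 to -0.27; adjusted p = 0.0949 to 0.147), and with library totals (-0.29; adjusted p = 0.0623). By DESeq2's Wald test the Fosb and Nr4a1 calls were lost (adjusted p = 0.0765 and 0.110). With the cross correlation as a covariate only the Fos domain of 3618 bp and the Bdnf leading domain passed. Without Tau 11-month replicate 2 the Arc leading domain passed (-0.16; adjusted p = 0.0201).

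Between the WT groups, 11 months against 6 months, 1 member passed, a Bdnf domain at 109518474 to 109519302, with 4.94, 6.22 and 6.83 CPM in WT 11-month libraries and 11.2, 10.3 and 9.70 CPM in WT 6-month libraries. It was lower at 11 months by log2 -0.79 ± 0.21 (adjusted p = 0.0284), where 0.487% of all domains were lower. Leaving out WT 11-month replicate 1 or 2, or any 1 WT 6-month replicate, ended this call (-0.84 to -0.67; adjusted p = 0.0719 to 0.198), as did DESeq2's Wald test (adjusted p = 0.283) and the covariate (adjusted p = 0.797). The Fos domain, with 39.4, 37.3 and 40.0 CPM in WT 11-month and 46.6, 49.3 and 46.5 CPM in WT 6-month libraries, differed by -0.28 ± 0.092 (adjusted p = 0.107). The Egr1 leading domain, which did not pass, had 108, 106 and 108 CPM in WT 11-month and 93.0, 93.0 and 95.2 CPM in WT 6-month libraries. In Tau libraries it had 91.2, 90.2 and 85.6 CPM at 11 months and 101.5 and 91.9 CPM at 6 months. Its difference in Tau effect between ages thus combines higher WT and lower Tau means at 11 months.

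**Figure D3:**
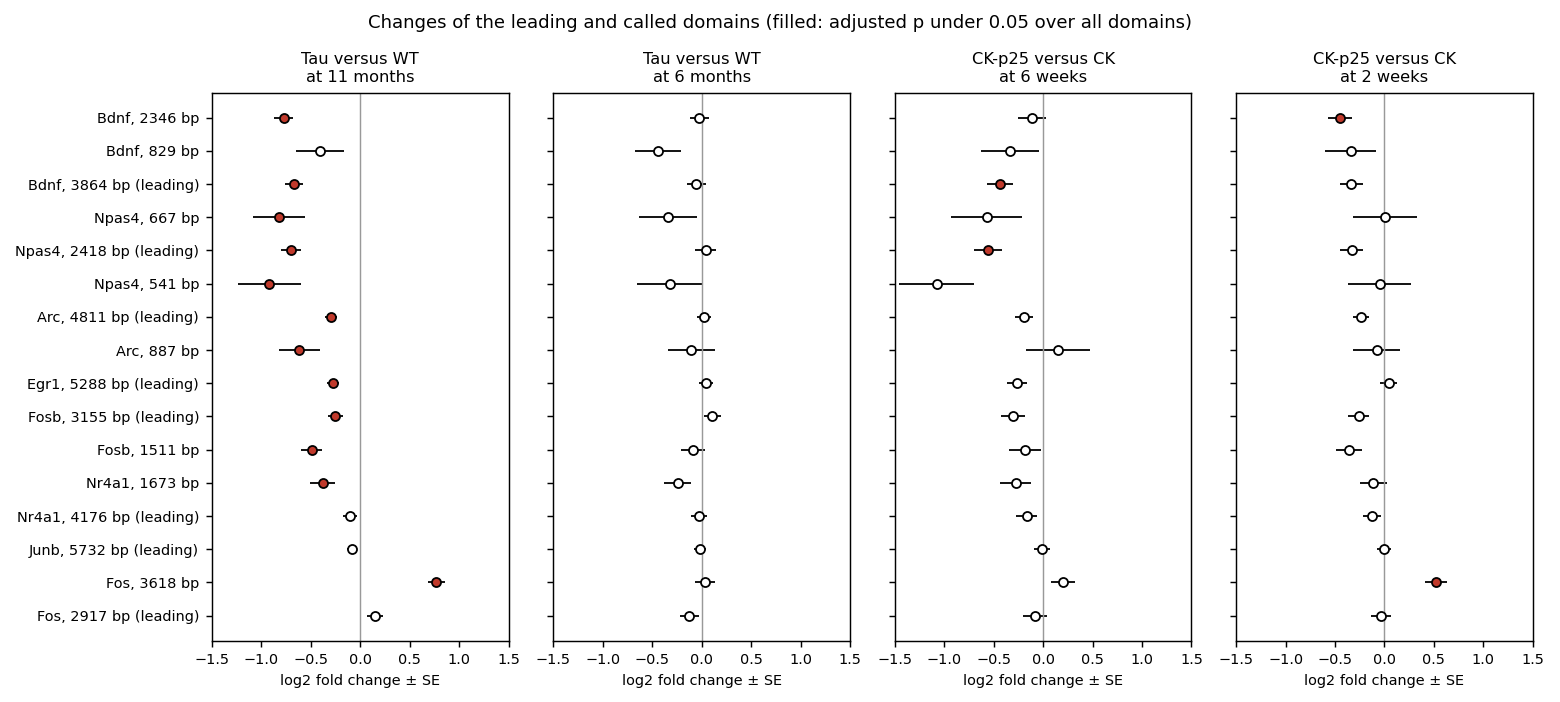
Log2 fold change with its SE (horizontal axes) of the 8 leading domains and the 8 others that passed the test in any comparison (rows, named by window and width), in the 4 comparisons of a model with its control. Filled points passed at an adjusted p under 0.05: 12 for Tau against WT at 11 months, 0 at 6 months, 2 for CK-p25 against CK at 6 weeks and 2 at 2 weeks.

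In the CK-p25 series, 42 of the 53 members had enough reads to be tested, and the 11 others were at most 325 bp wide. At 6 weeks, 2 members were lower in CK-p25 hippocampus and none higher, where 1.33% of the 38193 domains tested were lower. Of the 10 wide members, 2 were lower, against 6.60% of wide domains. The Npas4 leading domain had 34.4, 32.1 and 30.9 CPM in CK-p25 libraries, against 42.2, 45.4 and 68.7 CPM in CK libraries. The groups did not overlap, and the log2 fold change was -0.56 ± 0.14 (fold 0.679; adjusted p = 0.0128). CK replicate 3, the shallowest library, was the highest, and without it the value was -0.40 (adjusted p = 0.216). The Bdnf leading domain had 46.8, 48.9 and 37.9 CPM in CK-p25 and 53.4, 60.5 and 86.1 CPM in CK libraries (-0.44 ± 0.13; adjusted p = 0.0457). Its call was lost without CK replicate 3 (-0.29; adjusted p = 0.392) or replicate 2 (-0.45; adjusted p = 0.117), without CK-p25 replicate 1 or 3 (-0.47 and -0.38; adjusted p = 0.143 and 0.158), or without CK 2-week replicate 3 (-0.44; adjusted p = 0.0517). It was also lost with library totals, no filter on low counts, the 6-week groups alone, DESeq2's Wald test, cross correlation as a covariate or both shallowest libraries left out (-0.50 to -0.23; adjusted p = 0.0503 to 0.616). Without CK-p25 replicate 2, the narrow Npas4 domain at 4990292 to 4990832 passed (-1.97; adjusted p = 0.00531), against -1.08 ± 0.38 with all libraries (adjusted p = 0.129).

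At 2 weeks, 1 member was higher and 1 lower in CK-p25 mice, against 1.51% and 0.613% of all domains tested. Of the 10 wide members, 1 was higher and 0 lower, against 2.05% and 3.10% of wide domains. The Fos domain that was higher in Tau mice at 11 months had 68.8, 77.2 and 58.0 CPM in CK-p25 libraries, against 54.1, 45.7 and 44.1 CPM in CK libraries. Every CK-p25 library was above every CK library, and the log2 fold change was 0.52 ± 0.11 (fold 1.43; adjusted p = 0.000673), or 0.42 without CK-p25 replicate 2 (adjusted p = 0.0585). At 6 weeks it had 60.0, 59.6 and 63.4 CPM in CK-p25 and 49.6, 50.7 and 63.6 CPM in CK libraries (0.20 ± 0.12; adjusted p = 0.540). The Bdnf domain at 109515956 to 109518301 had 36.7, 36.0 and 44.8 CPM in CK-p25 libraries, against 47.4, 56.0 and 54.4 CPM in CK libraries at 2 weeks, with no overlap (-0.45 ± 0.12; adjusted p = 0.0154). Its call was lost when CK-p25 replicate 1 or 2, or CK replicate 2 or 3, was left out (-0.44 to -0.39; adjusted p = 0.0607 to 0.239), and by DESeq2's Wald test (-0.44; adjusted p = 0.186). At 6 weeks that domain had 41.0, 37.8 and 33.2 CPM in CK-p25 and 42.2, 43.4 and 36.9 CPM in CK libraries (-0.11 ± 0.14; adjusted p = 0.835). The Bdnf leading domain, at -0.34 ± 0.12 at 2 weeks (adjusted p = 0.128), passed without CK-p25 replicate 3 (-0.46; adjusted p = 0.0328). The Arc leading domain, at -0.23 ± 0.081 (adjusted p = 0.130), passed without CK-p25 replicate 1 (-0.33; adjusted p = 0.0233).

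Averaged over 2 and 6 weeks, 5 members were lower in CK-p25 mice and 1 higher, against 2.75% and 3.20% of all domains tested. Of the 10 wide members, 4 were lower and 1 higher, against 12.2% and 4.90% of wide domains. The Npas4 leading domain was lower by log2 -0.45 ± 0.093 (adjusted p = 0.000287), the Bdnf leading domain by -0.39 ± 0.088 (adjusted p = 0.00112), and the Fos domain was higher by 0.36 ± 0.082 (adjusted p = 0.00108). These 3 calls held whichever 1 library was left out. With cross correlation as a covariate the Bdnf leading domain was at -0.31 (adjusted p = 0.0562) and 4 members passed. The Fosb leading domain (-0.28 ± 0.082; adjusted p = 0.0195), the Arc leading domain (-0.21 ± 0.061; adjusted p = 0.0151) and the other Bdnf domain (-0.28 ± 0.092; adjusted p = 0.0466) were also lower. All 3 of these calls were lost without CK 6-week replicate 1 (-0.20, -0.19 and -0.27; adjusted p = 0.282, 0.105 and 0.166), which left 3 members. The Fosb call was also lost without CK-p25 2-week replicate 1 or CK 2-week replicate 1 (-0.25 and -0.22; adjusted p = 0.0606 and 0.117). The Arc call was also lost without CK-p25 2-week replicate 2 or 3, CK-p25 6-week replicate 1 or CK 2-week replicate 2 (-0.20 to -0.17; adjusted p = 0.0576 to 0.122). The call of the other Bdnf domain was also lost without CK-p25 2-week replicate 1 or 2, any 1 CK-p25 6-week replicate, CK 2-week replicate 2 or 3, or CK 6-week replicate 2 (-0.32 to -0.25; adjusted p = 0.0510 to 0.164). It was also lost with library totals, no filter on low counts, the covariate or both shallowest libraries left out (-0.32 to -0.27; adjusted p = 0.0529 to 0.0763). By DESeq2's Wald test it and the Fosb and Arc calls were lost (adjusted p = 0.224, 0.170 and 0.111). Without CK-p25 6-week replicate 2 the narrow Npas4 domain passed (-1.01; adjusted p = 0.0140). The Junb leading domain was at -0.01 ± 0.055 (adjusted p = 0.974), and the Egr1 and Nr4a1 leading domains at -0.11 ± 0.064 and -0.15 ± 0.072 (adjusted p = 0.410 and 0.293). The CK-p25 effect at 6 weeks minus that at 2 weeks passed at no member, and at 0.00524% of all domains tested. CK controls at 6 weeks against those at 2 weeks also differed at no member, where 0.00262% of domains did. By DESeq2's Wald test neither gave a call among the members, and in each 3 members had an unadjusted p under 0.05 by edgeR's quasi-likelihood test.

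**Figure D4:**
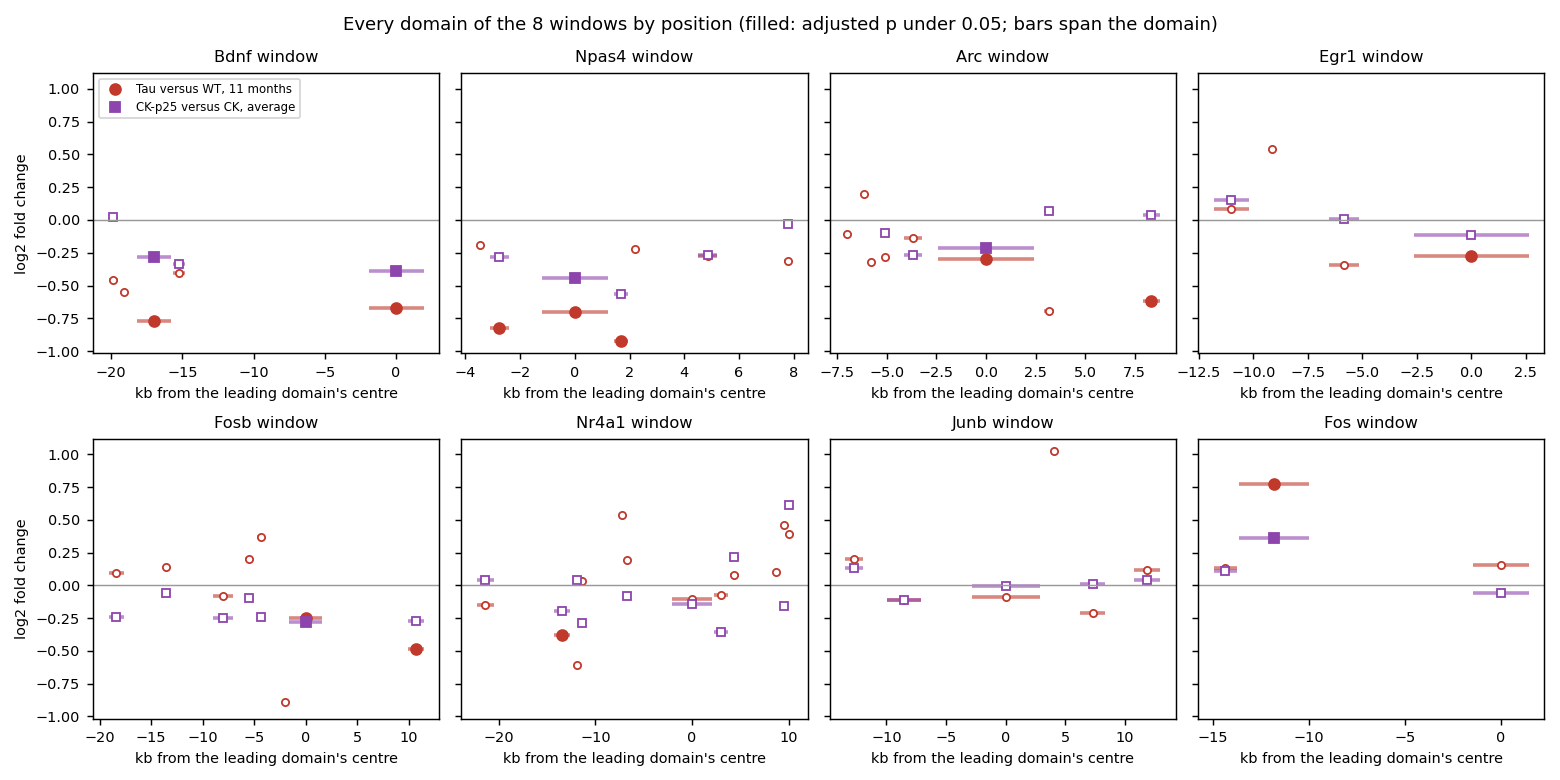
Log2 fold change (vertical axes) of every tested domain of the 8 windows by its distance in kb from the centre of the leading domain (horizontal axes), for Tau against WT at 11 months (red circles) and CK-p25 against CK averaged over 2 and 6 weeks (purple squares). Filled symbols passed at an adjusted p under 0.05 and bars span each domain: the Bdnf and Npas4 windows lie below 0 in both models at their called domains, and the Fos domain lies above 0 in both.

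The models share no library, and the difference between their effects was not tested. Of the 42 members tested in both, 20 (47.6%) had a log2 fold change below 0 both in Tau mice at 11 months and in CK-p25 mice on average, 7 (16.7%) were above 0 in both, and 15 (35.7%) had opposite signs. Over all 38167 domains tested in both series the shares were 32.3%, 32.5% and 35.2%. Members of 1 window are neighbours on the same chromatin and are not independent. By summed window, the Npas4 window averaged 42.0 ± 5.61 CPM in Tau and 65.4 ± 5.75 CPM in WT libraries at 11 months, and 51.7 ± 6.73 CPM in CK-p25 and 78.7 ± 13.9 CPM in CK libraries at 6 weeks (SD, n = 3 each). The Bdnf window averaged 97.0 ± 12.3 CPM in CK-p25 and 126 ± 15.3 CPM in CK libraries at 6 weeks, and 104 ± 14.2 CPM in CK-p25 and 131 ± 3.34 CPM in CK libraries at 2 weeks. The Junb window averaged 413 ± 13.0 CPM in Tau and 431 ± 6.41 CPM in WT libraries at 11 months, and 413 ± 17.8 CPM in CK-p25 and 424 ± 3.76 CPM in CK libraries at 6 weeks.

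The remaining 37 members were neither leading nor called in any comparison. In Tau against WT at 11 months, 18 of them had a log2 fold change above 0 and 19 below, from -0.89 to 1.02 with a median of -0.08. Of these, 26 were tested in the CK-p25 series, where 12 were above 0 and 14 below on average over both times, from -0.36 to 0.61.

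Within groups, the leading domains did not all follow 1 library. The most often highest was CK 2-week replicate 1, at 6 of the 8 leading domains, and in the Tau 11-month group replicate 1 was highest at 5 (Fos, Egr1, Nr4a1, Fosb and Junb) and replicate 2 at 3 (Arc, Npas4 and Bdnf). In the WT 11-month group replicate 1 was highest at 5 and replicate 2 at Npas4 and Bdnf.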

How the data were processed

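Per the series' design text, a common set of H3K9ac domains was defined and the authors deposited a table of raw read counts per domain and library with the domains' positions. The submitters' processing notes name MACS2, Picard 1.1175, BWA and the mm9 build, without the role of each tool. The 22 input libraries are not in the count table, and the score column of the domain file was 0 throughout and was not used. Each of the 23 count columns matched 1 library. The tau and CK-p25 series used different antibody lots and were analysed apart, each with all its groups in 1 fit, in edgeR 4.0.16 under R 4.3.3 (TMM scaling, filterByExpr by group, robust quasi-likelihood test, Benjamini-Hochberg adjustment over all domains tested, threshold 0.05). An SE is the log2 fold change divided by the square root of F. CPM are computed from the deposited counts. Counting error and the number of libraries limit precision. Alternatives used DESeq2 1.42.0, other scalings, filters, covariates and left-out libraries. Values were given per library for the leading domain of each window and for each member past the threshold in any of 10 comparisons. The members, windows and lists were chosen with earlier results of these data known. The fit was checked on simulated counts. Replicates of a group differed beyond counting error (chi-square per degree of freedom 1.10 to 1.88), so none was merged. Same-numbered libraries did not deviate together (correlations -0.012 to 0.052), so numbers were not taken as pairs.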

Additional observations from a re-analysis of the deposited data

Results flagged for a closer look

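At 6 domains the Tau effect differed between ages by the test of the difference (edgeR's quasi-likelihood test with Benjamini-Hochberg adjustment over all domains), where age and sex change together. The Tau effect at 11 months minus that at 6 months was log2 0.74 at the Fos domain of 3618 bp, -0.74 at the Npas4 leading domain, -0.75 at the Bdnf domain of 2346 bp, -0.62 at the Bdnf leading domain, -0.32 at the Arc leading domain and -0.32 at the Egr1 leading domain. The Fos call held in all 18 alternatives in which it was recomputed. The Arc call was lost in 10 of 18 and the Egr1 call in 12 of 18, among them the replicate block (-0.30 and -0.32; adjusted p = 0.0580 and 0.0540). Without Tau 6-month replicate 1, the Npas4 value was -0.60 (adjusted p = 0.0535), the Arc value -0.36 (adjusted p = 0.0575) and the Egr1 value -0.24 (adjusted p = 0.380), and the count of members that differed was 3. The Arc call was also lost without Tau 11-month replicate 3, Tau 6-month replicate 2, WT 11-month replicate 1 or WT 6-month replicate 2 or 3 (-0.32 to -0.25; adjusted p = 0.0631 to 0.215). The Egr1 call was also lost without Tau 11-month replicate 3 or any 1 WT replicate of either age (-0.33 to -0.29; adjusted p = 0.0537 to 0.101). The Fosb leading domain, at -0.36 with all libraries (adjusted p = 0.0647), passed without Tau 11-month replicate 1 (-0.41; adjusted p = 0.0422). Without Tau 6-month replicate 2, the Bdnf leading domain was at -0.43 (adjusted p = 0.107). With cross correlation as a covariate, the Npas4 leading domain was at -0.75 (adjusted p = 0.142) and the Bdnf domain of 2346 bp at -0.79 (adjusted p = 0.0788).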

How the results depend on the processing

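Of 35 results for single domains that passed the test, 666 recomputed values kept direction and call in 530 cases, kept direction and lost the call in 135, and turned once: with cross correlation as a covariate the Fosb leading domain at 11 months was at 0.0041. For Tau against WT at 11 months the count of 12 members was 7 at a threshold of 0.01, 7 by DESeq2's Wald test, 3 with the covariate, 8 with library totals, 9 with the compared groups alone, and 8 to 12 with 1 library left out. With the covariate, the average over ages and the difference between ages gave 2 each in place of 6. With 1 library left out they gave 3 to 7 each. WT at 11 against 6 months gave 0 in place of 1 at the threshold of 0.01, by DESeq2 and with the covariate, and 0 to 1 with 1 library left out. CK-p25 against CK at 2 weeks gave 1 in place of 2 at the threshold of 0.01 and by DESeq2, and 0 to 3 with 1 library left out (0 without CK-p25 2-week replicate 2). At 6 weeks the count of 2 was 0 at the threshold of 0.01 and without both shallowest libraries, 1 with library totals, no filter, DESeq2, the replicate block, the covariate or the compared groups alone, and 0 to 3 with 1 library left out (0 without CK 6-week replicate 3). Averaged over both times the count of 6 was 3 at the threshold of 0.01 and by DESeq2, 4 with the covariate, and 3 to 6 with 1 library left out. With the replicate block the counts were 12 at 11 months, 7 for the Tau average, 4 for the difference, 2 at 2 weeks and 5 for the CK-p25 average. It ended the calls of the Bdnf leading domain at 6 weeks (-0.43; adjusted p = 0.0551) and of the other Bdnf domain in the CK-p25 average (-0.28; adjusted p = 0.0572). Same-numbered libraries share only a number. Where calls were lost or the direction turned, the cause was not tested. The depth of the CK 6-week group, 996369 to 3162511 reads, limits what the 6-week comparison can show.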

Other observations

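In 4 of the 8 windows at least 1 domain reached past the window's edge, and counting only domains wholly inside gave 10 calls at 11 months in place of 12.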
